A study of Mus musculus with 9 samples.

Results

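The colon of mice given atorvastatin was compared with the colon of vehicle mice by bulk RNA-seq, using 3 Atorvastatin and 3 Normal libraries, 6 of the 9 libraries of the study, and every gene with enough reads to test, 16160 of the 21720 in the deposited table. All animals were wild-type (WT) female C57BL/6 J mice. Normal mice were gavaged for 7 days with only the vehicle, 0.5% CMC-Na, the sodium salt of carboxymethyl cellulose. Atorvastatin mice received 10 mg/kg of the drug in 0.2 mL once a day for 5 days, day 3 to day 7. A further group of 3 libraries, Model, came from mice gavaged for 7 days with 5% DSS, dextran sulfate sodium, a polymer that injures the colon lining. The labels do not say whether Atorvastatin mice also received DSS, so an effect of the drug and an effect of DSS cannot be told apart in this comparison. Nor do they say that the libraries of a group came from separate mice, so each p-value covers library-to-library spread alone, part or all of which could be technical.

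Atorvastatin is a statin. It blocks cholesterol synthesis, and cells short of sterol answer through the transcription factor SREBP2, which switches on genes of sterol synthesis and uptake. In an inflamed colon, epithelial cells and fibroblasts release chemokines that draw neutrophils and monocytes from the blood, the epithelium makes antimicrobial proteins and inducible nitric oxide synthase, fibroblasts remodel the matrix, and the mucus made by goblet cells can thin.

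The Atorvastatin colon carried higher RNA levels of neutrophil chemokines, myeloid receptors, antimicrobial and stress response genes and matrix proteases than the vehicle colon. It carried lower levels of circadian output genes and of the goblet cell protein Clca1. Of the 16160 genes, 270 (1.67%) passed edgeR's quasi-likelihood test at a Benjamini-Hochberg adjusted p under 0.05, 214 higher (1.32%) and 56 lower (0.347%). A change of at least 1 on the log2 scale was seen in 188 of the higher and 37 of the lower genes. The shares of 1.32% higher and 0.347% lower are the background for edgeR's calls in each list below. A second tool, DESeq2's Wald test, called 715 of the 16160 genes higher and 341 lower, the background for its own calls. A positive fold change was seen in 51.3% of all tested genes. The lists were chosen with earlier results of these data known, so their counts are descriptions that test nothing. In all 270 the 3 libraries of one group lay above those of the other, an arrangement shared by 24.7% of all tested genes, and the median log2 fold change over all tested genes was 0.01. Along principal component 1 (27.0% of variance) the Normal libraries lay between -82.0 and -42.4, the Atorvastatin libraries between 7.49 and 27.6 and the Model libraries between 33.5 and 59.2. The number of calls rested on single libraries. Leaving out Normal 1 gave 34, Normal 2 gave 167, Normal 3 gave 17, Atorvastatin 1 gave 64 and Atorvastatin 3 gave 93. All 270 genes kept their direction in each of the 20 alternatives that tested them. That tells little, because the sign of genes whose libraries do not overlap can hardly change. Only 14 genes passed with each of the 9 libraries left out in turn, the higher Serpina3n, Gpnmb, Lsm12, Clec4n, Fcer1g, Nos2, Adamts9, Adamts4, Prss22 and Steap4 and the lower Tppp, Phgr1, Dbp and Ly6m.

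Genes that mark position along the colon differed between the libraries. Hoxb13, a homeobox gene of the distal colon, was at 25.6, 141 and 107 CPM (counts scaled to library size) in Normal 1, 2 and 3, and at 1.29, 120 and 0.406 CPM in Atorvastatin 1, 2 and 3. Atp12a, a proton pump of the distal colon, was likewise highest in Atorvastatin 2 within that group, at 11.1, 961 and 53.4 CPM against 118, 1393 and 446 CPM in Normal. Hoxb6, a homeobox gene expressed further forward, was at 14.8, 1.70 and 2.33 CPM in Normal and 20.8, 2.66 and 49.2 CPM in Atorvastatin. Atorvastatin 1 and Atorvastatin 3 were thus low in Hoxb13 and Atp12a and high in Hoxb6. The 7 proximal colon genes, Hoxb6 among them, did not follow Hoxb6 as a set. Their fold changes were positive in 2 and negative in 5. They summed to 599 to 897 CPM in Normal and to 344, 570 and 483 CPM in Atorvastatin 1, 2 and 3. Hoxb13, Atp12a and Hoxb6 ranges overlapped between the groups. With the Hoxb13 level as a covariate, an alternative chosen after seeing the data, 18 genes passed, 15 of them higher, and all 18 were among the 270; the part of colon position in the other calls was not tested. The 16 colon identity markers were measured in every library, at a summed level of 32848 to 44847 CPM in Normal and 25324 to 33855 CPM in Atorvastatin, and none of the 16 passed. The 6 libraries held 72584333 to 84017551 estimated counts each. The 21 tested pancreatic acinar genes, which mark carried-over pancreas, summed to 428 to 2154 CPM in Normal and 70.1 to 3218 CPM in Atorvastatin, with none passing. In the Model libraries, which share the fit, they summed to 228 CPM in Model 1, 101122 CPM in Model 2 and 42689 CPM in Model 3. Model 2 and Model 3 thus stand apart. Without those 2 libraries 316 genes passed between Atorvastatin and Normal, 212 of them among the 270.

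The neutrophil chemokines Cxcl1, Cxcl2 and Cxcl5 were near the detection limit in the vehicle colon and measurable in every Atorvastatin library. Of 28 cytokine and chemokine genes tested, 7 rose, 0 fell and 21 did not pass, and the median log2 fold change of the list was 2.22, against 0.01 for all genes; it was 2.04 with the genes at 0 in Normal, Il17a and Csf3, set to their lower bounds. All 28 had a positive fold change, against 51.3% of all tested genes. In 18 the libraries did not overlap, against 13.5% of all genes in that direction. Cxcl1, a ligand of the neutrophil receptor CXCR2, was at 0.114, 0.200 and 0 CPM in Normal and 8.05, 3.23 and 2.24 CPM in Atorvastatin. Cxcl2, a second CXCR2 ligand, was at 0.170, 0.175 and 0.0514 CPM in Normal and 14.9, 4.34 and 5.36 CPM in Atorvastatin. For both genes the lowest Atorvastatin library lay above every Normal library, and Atorvastatin 1 was the highest. The ratio of Cxcl2 between the groups was 63.1-fold, with a 95% exact interval of 29.8 to 138 that covers counting error only, since 8 read pairs lay behind the Normal value. For Cxcl1, with 6 read pairs in Normal, it was 43.5-fold (19.7 to 119). The log2 fold change was 5.94 ± 0.74 (SE, n = 3 and 3) for Cxcl2, with an adjusted p of 0.0129 by edgeR's quasi-likelihood test, and 5.41 ± 0.95 for Cxcl1, with an adjusted p of 0.0288. The Cxcl2 call was lost without Normal 1 (0.0510) or Normal 3 (0.0691), and the Cxcl1 call without Normal 1 (0.104), Normal 2 (0.0524), Normal 3 (0.0824), Atorvastatin 1 (0.0855) or Atorvastatin 3 (0.0532), all adjusted p by edgeR. With limma-voom neither passed, at adjusted p of 0.143 for Cxcl2 and 0.177 for Cxcl1.

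The promoters of Cxcl1 and Cxcl2 are shown because these neighbouring genes moved together and each promoter holds a kappaB motif, the sequence bound by NF-kappaB. The sequences are from RefSeq on GRCm38.p6, from 250 bases before to 50 bases after the start, on the plus strand, at chr5:90890995-90891294 for Cxcl1 and chr5:90903649-90903948 for Cxcl2, with the matched run in capitals.
Cxcl1: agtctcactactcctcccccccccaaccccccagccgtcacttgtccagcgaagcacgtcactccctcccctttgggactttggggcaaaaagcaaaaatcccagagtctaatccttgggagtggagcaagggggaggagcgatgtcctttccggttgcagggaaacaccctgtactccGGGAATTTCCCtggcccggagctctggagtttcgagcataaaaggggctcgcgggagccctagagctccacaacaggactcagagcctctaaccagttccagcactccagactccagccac
Cxcl2: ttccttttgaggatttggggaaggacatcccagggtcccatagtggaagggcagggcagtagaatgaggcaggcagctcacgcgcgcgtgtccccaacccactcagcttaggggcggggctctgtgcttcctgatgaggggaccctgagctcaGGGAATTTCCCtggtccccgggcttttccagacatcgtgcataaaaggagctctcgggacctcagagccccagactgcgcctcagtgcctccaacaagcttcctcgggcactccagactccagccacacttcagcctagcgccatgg
The search was for GGGAA and TTCC with 1 base of any kind between them, on both strands, and both promoters held the run GGGAATTTCCC, which contains an overlapping match on each strand. It began at base -71 in Cxcl1 and at base -97 in Cxcl2. Of the 150 higher genes with a promoter in the table, 5 held a match (3.33%), among them Ifitm3, Cd300ld and Tspan11 besides this pair, compared with 0 of 42 lower genes and 0.355% of all 27025 promoters. A match describes these letters and is not evidence of binding.

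The other members that passed were the neutrophil chemokine Cxcl5 (log2 fold change 5.13), the monocyte chemokine Ccl2 (2.48), the interferon-induced T cell chemokine Cxcl9 (1.81) and both forms of interleukin-1. Il1b was at 3.39, 11.0008 and 2.54 CPM in Normal and 67.2, 36.0 and 27.1 CPM in Atorvastatin, a log2 fold change of 2.94 ± 0.58 with an adjusted p of 0.0442 by edgeR. Il1a had a log2 fold change of 3.06 (adjusted p = 0.0427, edgeR). Tnf, which encodes tumour necrosis factor, did not pass: it was at 2.29, 6.39 and 0.899 CPM in Normal and 10.4, 10.7 and 11.4 CPM in Atorvastatin, with a log2 fold change of 1.76 ± 0.56 (adjusted p = 0.168, edgeR). Tnf passed without Normal 2 (log2 fold change 2.77, adjusted p = 0.0221, edgeR) and with DESeq2's Wald test (adjusted p = 0.0168). Il6, at 0.128, 0.100 and 0 CPM in Normal and 4.61, 0.363 and 0.107 CPM in Atorvastatin, did not pass either (adjusted p = 0.186, edgeR), and its Atorvastatin value came mostly from Atorvastatin 1. Csf3, the growth factor of neutrophils, was at 0 in each Normal library and at 2.74, 0.317 and 1.05 CPM in Atorvastatin, at least 26.4-fold higher against a floor of 3 read pairs over the group, with an adjusted p of 0.0613 (edgeR). With 1 library removed, Normal 1 and Normal 3 each took the number of passing members from 7 to 0, Atorvastatin 1 and Atorvastatin 3 each to 3, and Model 1 to 4; with Hoxb13 as a covariate it was 0 and with limma-voom 2.

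Receptors and some other genes of neutrophils and monocytes rose with the chemokines. Of 22 neutrophil and monocyte genes tested, 9 rose, 0 fell and 13 did not pass, with a median log2 fold change of 2.96. Over all tested genes 1.32% rose. In 19 of the 22 the libraries did not overlap with Atorvastatin higher, against 13.5% of all genes. S100a9, a subunit of the calcium-binding protein calprotectin, was at 0.0568, 0 and 0.103 CPM in Normal and 38.0, 7.44 and 4.44 CPM in Atorvastatin. Its ratio was 324-fold, with a counting interval of 110 to 1572 from 3 read pairs in Normal, and its log2 fold change of 8.26 ± 1.33 had an adjusted p of 0.0217 by edgeR. The partner subunit S100a8 was at 0.114, 0 and 0.0899 CPM in Normal and 10.5, 1.58 and 0.907 CPM in Atorvastatin, just outside the threshold (adjusted p = 0.0545, edgeR). In both calprotectin genes Atorvastatin 1 was the highest library. The C-type lectin Clec4e, a sensor of mycobacterial glycolipid and of dying cells, was at 0.326, 0.150 and 0.0514 CPM in Normal and 6.99, 3.63 and 3.86 CPM in Atorvastatin (log2 fold change 4.78 ± 0.74, adjusted p = 0.0196, edgeR). Ccr1, a receptor for CC chemokines, rose less and more evenly, from 4.54, 5.83 and 4.01 CPM to 13.3, 14.4 and 12.3 CPM (log2 fold change 1.48 ± 0.18, adjusted p = 0.011, edgeR). Csf3r, the receptor for the Csf3 product, had a log2 fold change of 2.48, the decoy interleukin-1 receptor Il1r2 one of 2.95, Clec4d 3.35, Retnlg 3.87 and the histamine-forming enzyme Hdc 2.86. Mmp8, neutrophil collagenase, was at 0 in each Normal library and at least 29.0-fold higher in Atorvastatin. The granule genes Camp, Ltf, Ngp and Mmp9 of the list were not among the passing genes. Camp had 2 read pairs in Normal and 8 in Atorvastatin (counting interval 0.693 to 33.6). Ly6g, the surface marker used to sort mouse neutrophils, did not pass: it was at 41.8, 183 and 60.5 CPM in Normal and 86.0, 157 and 90.2 CPM in Atorvastatin, so the groups overlapped, and it belongs to the Ly6 family, whose close copies can share reads. Tarm1, a myeloid activating receptor outside the list, was at 0, 0.0501 and 0 CPM in Normal and 3.58, 2.01 and 2.32 CPM in Atorvastatin (151-fold from 1 read pair in Normal, counting interval 26.8 to 6005). In bulk tissue, more cells of a type and more RNA per cell cannot be told apart. Of the 9 calls, 0 stood without Normal 1, 0 without Normal 3 and 2 without Atorvastatin 1; 5 list members passed without Normal 2, 0 with Hoxb13 as a covariate and 2 with limma-voom, where S100a9 was at an adjusted p of 0.465 and Clec4e at 0.127.

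**Figure D1:**
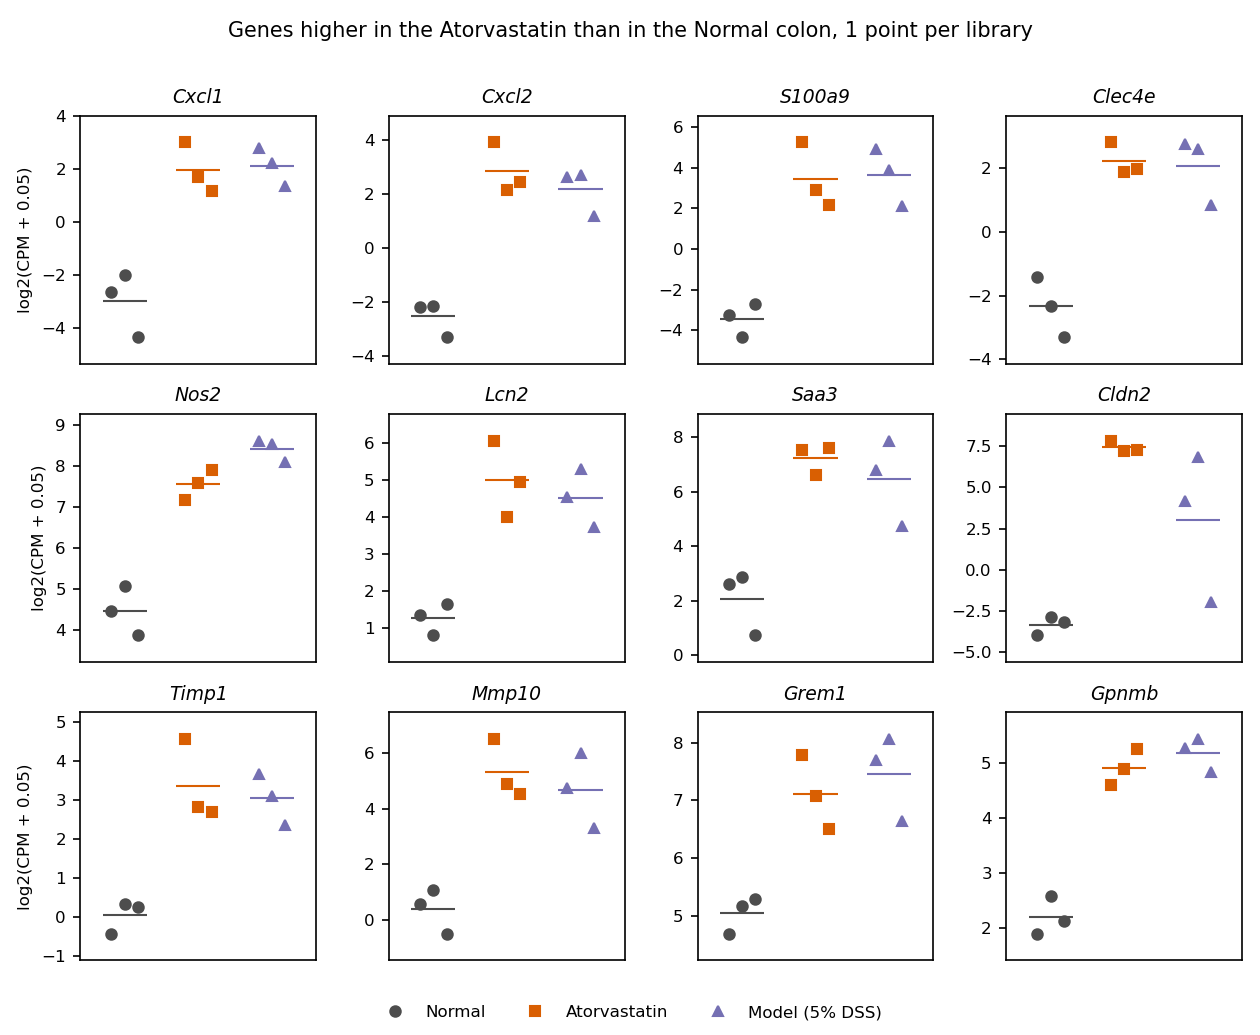
Log2(CPM + 0.05) of 12 genes higher in Atorvastatin, with 1 point per library, 3 libraries in each of Normal, Atorvastatin and Model (5% DSS), and a line at the mean of each group. The Atorvastatin libraries lie above the Normal libraries in all 12 panels, and in Cldn2 the Model libraries spread from 0.205 to 117 CPM while the Atorvastatin libraries lie between 146 and 228 CPM.

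Macrophage genes rose by smaller folds. Of 17 tested, 5 rose, 0 fell and 12 did not pass (median log2 fold change 1.13), where 1.32% of all genes rose. Non-overlapping libraries with Atorvastatin higher were seen in 15, against 13.5% of all genes. The activating Fc receptor Fcgr3 was at 11.8, 21.6 and 13.6 CPM in Normal and 58.7, 43.5 and 52.0 CPM in Atorvastatin (log2 fold change 1.72 ± 0.23, adjusted p = 0.0133, edgeR). The lysosomal membrane protein Cd68 (1.46), the macrophage growth factor receptor Csf1r (1.07), the complement subunit C1qb (1.18) and the high-affinity Fc receptor Fcgr1 (1.70) also passed. Fc receptor genes are near copies of each other, so reads may be divided among them. Gpnmb, a glycoprotein of lipid-loaded and phagocytic macrophages that is outside the list, was at 3.70, 5.99 and 4.33 CPM in Normal and 24.1, 29.5 and 37.7 CPM in Atorvastatin. Its log2 fold change was 2.70 ± 0.26 with an adjusted p of 0.00562 by edgeR, and between 0.00423 and 0.0388 with each library left out. Clec4n, the lectin Dectin-2, went from 5.52, 6.13 and 4.54 CPM to 17.3, 15.2 and 16.1 CPM, a log2 fold change of 1.59 ± 0.16 (adjusted p = 0.00562, edgeR). Of the macrophage list, 0 members passed without Normal 1 or without Normal 3, 10 without Normal 2, 2 without Atorvastatin 1, 1 without Atorvastatin 3, 3 each without Model 1 and Atorvastatin 2, and 0 with Hoxb13 as a covariate.

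Lymphocyte and antigen presentation genes did not pass. None of 16 MHC class II and antigen presentation genes did (median log2 fold change 0.85). Nor did any of 16 T and NK cell genes (0.91), any of 15 B and plasma cell genes (-1.17) or any of 19 interferon-stimulated genes (-0.28). Among these lists DESeq2's Wald test called 4, 3, 0 and 1 genes higher and 0 lower. The 2 members of each list with the smallest p were Itgax (1.19) and H2-DMa (1.31), Ctla4 (1.42) and Nkg7 (1.19), Prdm1 (0.83) and Tnfrsf17 (-1.29), and Gbp5 (1.53) and Irf9 (-0.43), as log2 fold changes. Gbp5, a guanylate-binding protein induced by interferon gamma, was closest to the threshold, at 17.7, 23.9 and 11.7 CPM in Normal and 39.6, 54.3 and 59.8 CPM in Atorvastatin (adjusted p = 0.0519, edgeR). It passed in 7 of the 20 alternatives. Without Model 3 its adjusted p was 0.0282 (edgeR), the lowest with 1 library left out. It also passed without Model 2 and Model 3 together, in the 2 groups alone, with upper-quartile scaling and with counts divided by 4. DESeq2's Wald test and the edgeR fit of every gene with a count called it as well. Mast cell and eosinophil genes gave 0 calls among 12 (median -0.54), with Kit at -0.69 and the eosinophil granule gene Prg2 at 1.22.

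Genes of the epithelial defence list moved in both directions. Which cells of the bulk tissue held their RNA was not tested. Of 22 antimicrobial and stress response genes tested, 5 rose, 1 fell and 16 did not pass, with a median log2 fold change of 0.51. Nos2, inducible nitric oxide synthase, was at 22.1, 33.6 and 14.5 CPM in Normal and 145, 193 and 238 CPM in Atorvastatin, and lies on chromosome 11, 78811613 to 78851080, in the coordinates of the deposited table. Its log2 fold change was 3.04 ± 0.32 with an adjusted p of 0.00659 by edgeR, which stayed between 0.00655 and 0.0368 with each library left out. Nos2 passed in every alternative, the Hoxb13 covariate included (adjusted p = 0.0403, edgeR). With limma-voom it passed at 0.00705, while Lcn2 (0.0879) and Saa3 (0.0707) did not. Lcn2, lipocalin-2, which withholds iron from bacteria, was at 2.50, 1.69 and 3.08 CPM in Normal and 66.8, 15.9 and 30.8 CPM in Atorvastatin (log2 fold change 3.96 ± 0.60, adjusted p = 0.0177, edgeR). Saa3, serum amyloid A, was at 6.07, 7.24 and 1.62 CPM in Normal and 185, 99.2 and 195 CPM in Atorvastatin (log2 fold change 5.00 ± 0.84, adjusted p = 0.0243, edgeR), and Saa genes are near copies that can share reads. S100a11, a calcium-binding protein of epithelium, rose by 1.25 on the log2 scale. The Saa3 call was lost without any one Normal library (0.0607 to 0.0977), without Atorvastatin 1 (0.0742) and without Atorvastatin 3 (0.0686), and the S100a11 call without Normal 1 (0.0510) and Normal 3 (0.0900), all by edgeR.

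Cldn2, which encodes the cation channel claudin of leaky tight junctions, was almost absent from the vehicle colon at 0.0142, 0.0877 and 0.0642 CPM, and stood at 228, 146 and 154 CPM in Atorvastatin. The ratio was 3103-fold, with a counting interval of 1150 to 16304 from 3 read pairs in Normal, and the log2 fold change of 11.56 ± 2.09 had an adjusted p of 0.0316 by edgeR. In the Model group Cldn2 was at 18.3, 117 and 0.205 CPM, and the log2 difference of Atorvastatin from Model, 1.96, had a 95% interval of -0.89 to 4.82. It was the only 1 of 22 tight junction and adhesion genes to pass (median -0.05), with Cldn1 next at a log2 fold change of 1.30 (adjusted p = 0.221, edgeR). Prss22, a serine protease of epithelia, was at 0 in each Normal library and at 4.66, 4.001 and 5.83 CPM in Atorvastatin, at least 91.5-fold higher, with an adjusted p of 0.00562 (edgeR). With limma-voom the adjusted p was 0.533 for Cldn2 and 0.0579 for Prss22. The lectins Reg3b and Reg3g, which kill gut bacteria in mice, had high but scattered values: Reg3b was at 261, 211 and 2.88 CPM in Normal and 6399, 691 and 3037 CPM in Atorvastatin, and missed the threshold (log2 fold change 4.41 ± 1.796, adjusted p = 0.288, edgeR). Reg3g gave 4.03 ± 1.501 (adjusted p = 0.244, edgeR). Reg3b and Reg3g are near copies of each other. Ang4, an antimicrobial ribonuclease of Paneth and goblet cells with close copies in the mouse genome, fell from 2538, 155 and 2072 CPM to 11.1, 10.4 and 18.7 CPM, a log2 fold change of -6.89 ± 1.17 (adjusted p = 0.0255, edgeR); Normal 2 was low among the Normal libraries but stayed above every Atorvastatin library. Of the 6 calls in the defence list, 1 stood without Normal 1 and 1 without Normal 3, both times Nos2. Without Normal 1 the adjusted p was 0.0760 for Lcn2, 0.121 for Cldn2 and 0.0748 for Ang4, and without Normal 3 it was 0.0904, 0.153 and 0.0928 (edgeR). The Cldn2 call was also lost without Normal 2 (0.105), Atorvastatin 1 (0.0842) and Atorvastatin 3 (0.0742), the Lcn2 call without Normal 2 (0.0564) and the Ang4 call without any one Atorvastatin library (0.0707 to 0.114).

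The serpin Serpina3n, a secreted inhibitor of chymotrypsin-like proteases, had one of the smallest p-values among the higher genes. It was at 23.7, 27.8 and 21.5 CPM in Normal and 334, 162 and 228 CPM in Atorvastatin, with a log2 fold change of 3.31 ± 0.31 and an adjusted p of 0.00562 by edgeR (0.00404 to 0.0388 with each library left out). Serpina3m, a neighbour in the same gene cluster on chromosome 12, was at 0.227, 0.0626 and 0.116 CPM in Normal and 9.11, 3.20 and 6.71 CPM in Atorvastatin (48.3-fold, counting interval 22.8 to 106; adjusted p = 0.011, edgeR, and 0.0691 without Normal 3). The Serpina3 genes are near copies, so the division of reads between Serpina3n and Serpina3m is uncertain. Lsm12, an RNA-binding protein, went from 20.0, 25.4 and 24.1 CPM to 63.4, 55.8 and 54.9 CPM (log2 fold change 1.32 ± 0.13, adjusted p = 0.00562, edgeR), one of the 5 smallest p-values among the higher genes.

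Matrix proteases, collagen and fibroblast genes rose together. Of 24 matrix and tissue remodelling genes tested, 8 rose, 0 fell and 16 did not pass (median log2 fold change 1.07), and in 22 of the 24 the Atorvastatin libraries lay above the Normal libraries, against 13.5% of all genes. Timp1, an inhibitor of matrix metalloproteinases, was at 0.695, 1.20 and 1.14 CPM in Normal and 23.6, 6.99 and 6.3999 CPM in Atorvastatin (log2 fold change 3.60 ± 0.59, adjusted p = 0.0224, edgeR). Mmp2, gelatinase A, went from 17.7, 21.5 and 18.6 CPM to 88.9, 55.8 and 75.2 CPM (log2 fold change 1.93 ± 0.26, adjusted p = 0.0133, edgeR). The stromelysins were higher by more, Mmp3 by 4.49 and Mmp10 by 5.08 on the log2 scale, each with its maximum in Atorvastatin 1. The collagen cross-linking enzyme Lox (3.02), the collagen I chains Col1a1 (1.45) and Col1a2 (1.06) and the collagen-binding Sparc (1.03) completed the 8. Of 18 fibroblast genes, 4 rose and 14 did not pass (median 0.83): Pdpn (1.59), Pdgfra (1.24), the BMP antagonist Grem1 (2.14) and the Wnt enhancer Rspo3 (1.70). Grem1 was at 25.9, 35.9 and 39.3 CPM in Normal and 220, 134 and 90.2 CPM in Atorvastatin. Cemip, which breaks down hyaluronan, rose from 1.25, 0.677 and 1.18 CPM to 94.6, 29.3 and 23.1 CPM (log2 fold change 5.56 ± 0.83, adjusted p = 0.0177, edgeR), and Adamts4, a protease that cuts aggrecan and versican, from 0.866, 0.564 and 0.617 CPM to 29.2, 15.3 and 18.3 CPM (log2 fold change 4.94 ± 0.49, adjusted p = 0.00562, edgeR). Adamts4 and Adamts9 (2.09; chosen after its value was seen) passed with every library left out. Of the 8 matrix calls 0 stood without Normal 1 or Normal 3, and 1 matrix gene passed without Normal 2, 3 without Atorvastatin 1, 5 without Model 1, Atorvastatin 2 or Atorvastatin 3, and 15 without Model 3. Of the 4 fibroblast calls 0 stood without any one Normal library, without Model 1 or without Atorvastatin 1; with Hoxb13 as a covariate both lists had 0, and with limma-voom 1 matrix gene and 0 fibroblast genes passed, Adamts4 outside them being at an adjusted p of 0.0789.

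No vascular, muscle or nerve gene of these lists passed. None of 19 endothelial genes passed (median log2 fold change 0.64), with Selp, the adhesion molecule P-selectin, at 0.795, 0.802 and 1.45 CPM in Normal and 16.3, 6.77 and 4.20 CPM in Atorvastatin (adjusted p = 0.0565, edgeR) and Icam1 at a log2 fold change of 1.07 (adjusted p = 0.0842, edgeR). None of 17 neuron and glia genes passed (median 0.46), with Gfap at 1.62 and Nos1 at 1.13. All 16 smooth muscle genes had a negative fold change and none passed (median -0.90); 9 of them, against 11.2% of all genes, had non-overlapping libraries with Atorvastatin lower. Their summed level was 4019 to 5682 CPM in Normal and 2175 to 3186 CPM in Atorvastatin. Cnn1, calponin, was at 454, 299 and 430 CPM in Normal and 180, 180 and 202 CPM in Atorvastatin (adjusted p = 0.0737, edgeR) and Actg2 had a log2 fold change of -1.34 (adjusted p = 0.0933, edgeR). At an unadjusted p under 0.05, 2452 genes of the whole table passed, and DESeq2's Wald test called 5 endothelial genes higher, 2 neuron and glia genes higher and 6 smooth muscle genes lower. In the edgeR fit of the 2 groups alone, 4 smooth muscle genes were called lower and 1 endothelial and 2 neuron and glia genes higher. Without Model 3 the counts were 1, 3 and 2, without Model 1 they were 2, 0 and 0, and without Model 2 they were 0, 0 and 1.

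Some gene families that held called genes were counted as well, and a few of their members also stand in the macrophage list. The families were picked after the values of the called genes were seen, and their counts are descriptions that test nothing. Over all tested genes 1.32% rose. Of 25 complement genes tested 9 rose and 0 fell, with a median log2 fold change of 1.09. C3, the central complement protein, was at 345, 130 and 152 CPM in Normal and 1059, 664 and 682 CPM in Atorvastatin (log2 fold change 1.94 ± 0.36, adjusted p = 0.0361, edgeR), and the C1 inhibitor Serping1 rose by 1.28. All 6 of the ITAM adaptors and Fc gamma receptors rose (median 1.71), led in p by Fcer1g, the signalling chain of activating Fc receptors, which went from 4.29, 6.01 and 4.56 CPM to 15.8, 16.7 and 16.7 CPM (adjusted p = 0.00562, edgeR). Of 11 receptors and signalling genes of the IL-6 family 3 rose and 8 did not pass (median 0.34), the oncostatin M receptor Osmr (1.60), the feedback inhibitor Socs3 (2.10) and the transcription factor Stat3 (0.63). Socs3 was at 22.9, 17.6 and 9.10 CPM in Normal and 90.6, 58.0 and 64.7 CPM in Atorvastatin. Of 11 EGF family ligands 2 rose and 9 did not pass (median 0.07, with 6 positive). Epiregulin, Ereg, rose from 4.12, 5.15 and 2.40 CPM to 99.5, 26.3 and 20.0 CPM, and neuregulin 1, Nrg1, rose by 2.24 on the log2 scale. Of 12 genes of the insulin-like growth factor axis 4 rose and 8 did not pass (median 0.85), with Igfbp5 going from 52.2, 65.2 and 55.9 CPM to 656, 313 and 436 CPM, and Pappa, the protease that cuts such binding proteins, rising by 3.09. Of 4 metallothioneins, which bind zinc and copper, 2 rose (median 0.69), Mt1 by 1.36 and Mt2 by 2.27. The adjusted p of C3 reached 0.163, of Socs3 0.0724, of Ereg 0.190, of Igfbp5 0.0928 and of Stat3 0.216 in the least favourable of the fits with 1 library left out (edgeR), without Normal 3 for each of them but Socs3, whose highest was without Atorvastatin 1.

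**Figure D2:**
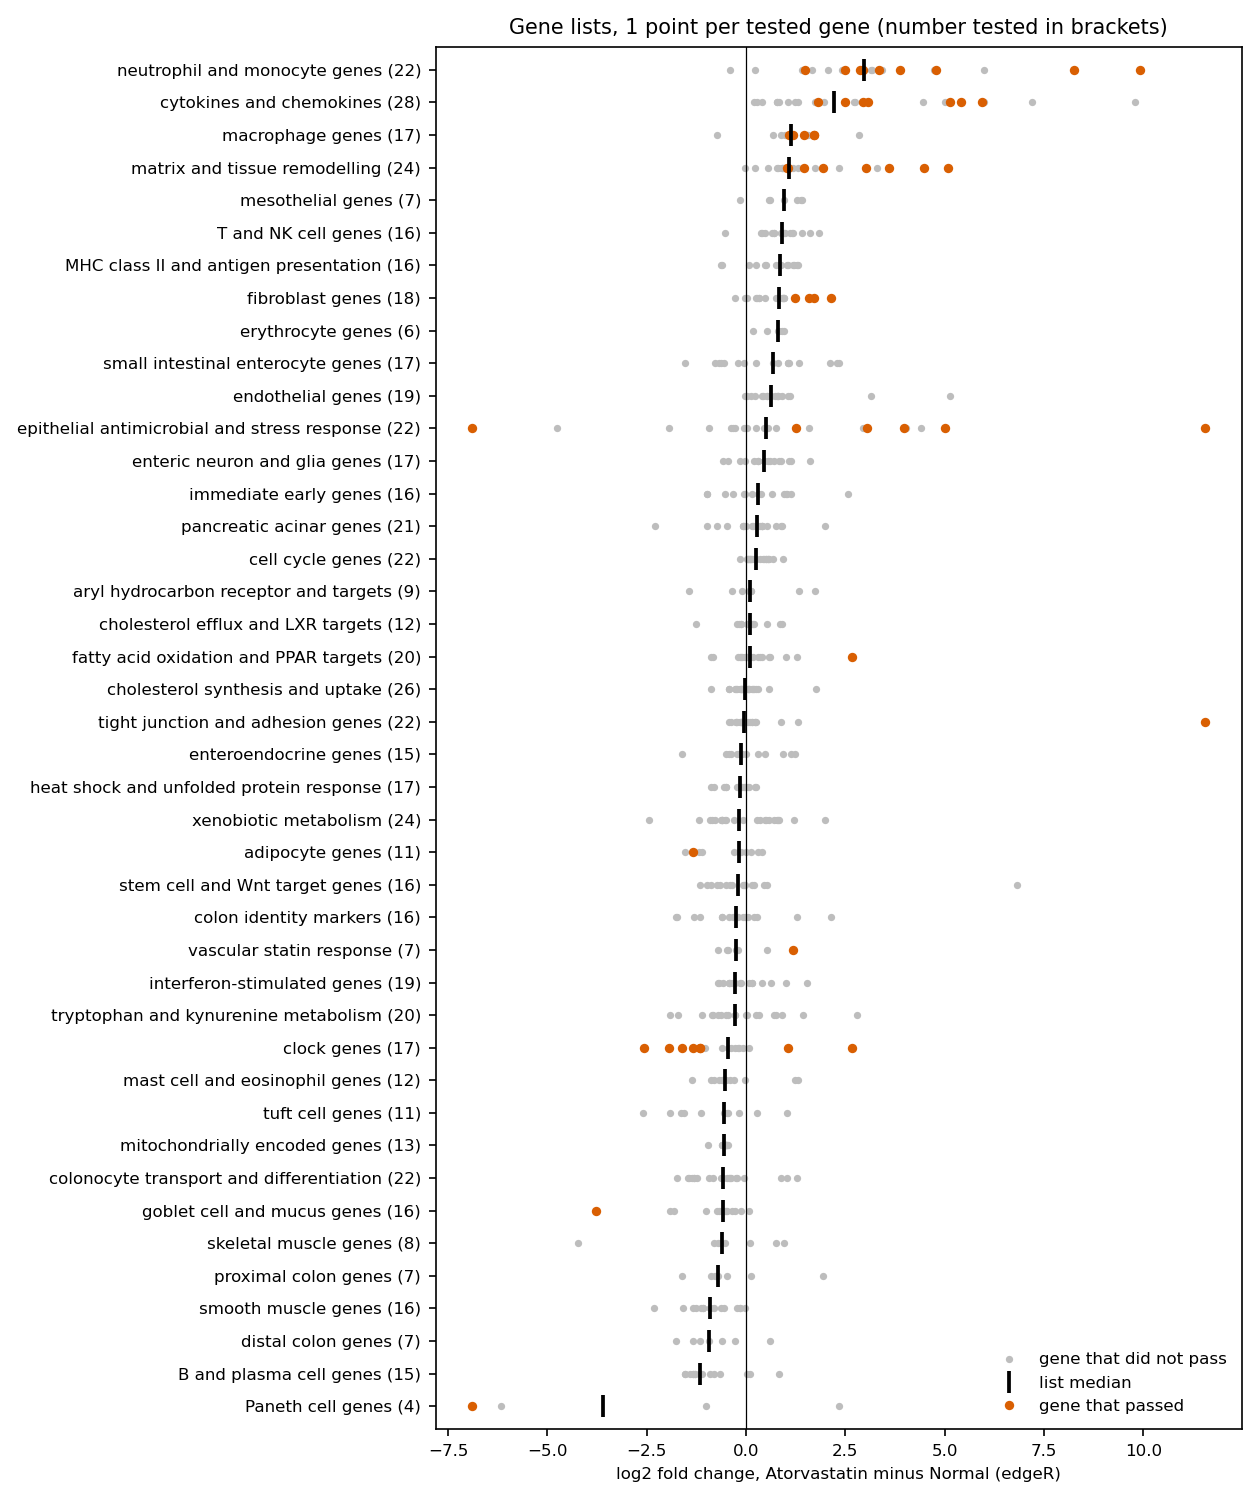
Log2 fold change of Atorvastatin minus Normal by edgeR for every tested gene of 42 lists, with 1 point per gene, passing genes in orange and a bar at the list median. The neutrophil and monocyte list (median 2.96) and the cytokine list (2.22) lie furthest right, and lists with passing genes on both sides are the clock genes and the epithelial antimicrobial genes.

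Among goblet cell and mucus genes Clca1 fell. Of 16 tested, 1 fell, 0 rose and 15 did not pass, where 0.347% of all genes fell. A negative fold change was seen in 15 of the 16 (median -0.59). In 9 the libraries did not overlap with Atorvastatin lower, against 11.2% of all genes. Clca1, a secreted protease that processes mucus, was at 32272, 9377 and 35183 CPM in Normal and 795, 3238 and 1542 CPM in Atorvastatin, a log2 fold change of -3.78 ± 0.68 with an adjusted p of 0.0297 by edgeR. Fcgbp, a mucus protein that binds mucin, was at 18483, 6493 and 15339 CPM in Normal and 2219, 4774 and 3779 CPM in Atorvastatin, and did not pass (adjusted p = 0.0621, edgeR; 0.0311 without Normal 2). Muc2, the gel-forming mucin of the colon, was at 26320.1, 14100.2 and 25205 CPM in Normal and 11362, 15071 and 16762 CPM in Atorvastatin, so its groups overlapped, and it was not called (log2 fold change -0.60 ± 0.34, adjusted p = 0.444, edgeR). In Clca1 and Fcgbp alike Normal 2 was the lowest Normal library and Atorvastatin 2 the highest Atorvastatin library. The Clca1 call was lost without Normal 1 (adjusted p = 0.0887), Normal 3 (0.110), Model 1 (0.0503), Atorvastatin 1 (0.0934) and Atorvastatin 3 (0.124), and with Hoxb13 as a covariate (0.150), all by edgeR. None of 22 colonocyte genes passed, with 19 negative (median -0.59); DESeq2 called 4 lower, and 3 passed without Atorvastatin 2. Slc26a3, the chloride and bicarbonate exchanger of surface colonocytes, was at 901, 1245 and 849 CPM in Normal and 217, 512 and 165 CPM in Atorvastatin (adjusted p = 0.0880, edgeR); without Atorvastatin 2 it passed (0.0287). The sodium and proton exchanger Slc9a3 had a log2 fold change of -1.37 (adjusted p = 0.167, edgeR). None of 11 tuft cell genes passed (median -0.56; DESeq2 called 1 higher and 2 lower), with Alox5ap at 1.03 and Pou2f3 at -1.92, and none of 15 enteroendocrine genes (median -0.13), with Sst at 0.93 and Tph1 at -0.52.

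Genes of the circadian clock passed in both directions. The clock runs on a loop in which the activators BMAL1 (gene Arntl) and CLOCK bind E-box motifs and switch on their own repressors, among them the Per genes and the nuclear receptors Nr1d1 and Nr1d2, and output factors such as Dbp and Tef; RNA of these genes rises and falls over the day. Of 17 clock genes tested, 6 fell, 2 rose and 9 did not pass (median log2 fold change -0.47). Dbp, a transcription factor of clock output, was at 35.5, 45.7 and 54.8 CPM in Normal and 5.50, 8.13 and 9.15 CPM in Atorvastatin. Its log2 fold change was -2.58 ± 0.26 with an adjusted p of 0.00562 by edgeR, and at most 0.0341 with each library left out. Nr1d1, which encodes the repressor REV-ERB alpha, was at 95.3, 88.3 and 103 CPM in Normal and 20.9, 24.6 and 28.8 CPM in Atorvastatin (log2 fold change -1.95 ± 0.26, adjusted p = 0.0133, edgeR). Nr1d2 (-1.33), Tef (-1.17), Per2 (-1.16) and Ciart (-1.60), a repressor of the loop, also fell, each with non-overlapping libraries. Nfil3, which represses at the same sites that Dbp and Tef activate, was at 4.31, 2.66 and 2.40 CPM in Normal and 22.8, 14.8 and 22.4 CPM in Atorvastatin (log2 fold change 2.68 ± 0.33, adjusted p = 0.0115, edgeR), and Arntl rose by 1.06. The labels give a 12 h light and dark cycle and no hour at which tissue was taken, so the part of sampling time in these values was not tested. Beside these values, in Model against Normal, which shares the Normal libraries, the log2 fold change was -1.500 for Dbp, -0.73 for Nr1d1 (adjusted p = 0.132, edgeR), -0.88 for Nr1d2, -0.60 for Per2 (adjusted p = 0.125, edgeR) and 2.66 for Nfil3. The difference of Atorvastatin from Model itself was -1.08 for Dbp (95% interval -1.64 to -0.52) and -1.21 for Nr1d1 (-1.78 to -0.64), and neither passed after adjustment over all genes. With 1 library left out, the falls that passed numbered 3 (Normal 1), 4 (Normal 2), 1 (Normal 3), 5 (Model 1) and 4 (Atorvastatin 1 or Atorvastatin 3). With Hoxb13 as a covariate 0 falls passed, Dbp at an adjusted p of 0.0601, and Nfil3 passed at 0.0403 (edgeR). The Arntl call was lost without any one Normal library (0.0506 to 0.184), without Model 1 (0.0625) and without any one Atorvastatin library (0.0537 to 0.124), and the Nfil3 call without Normal 3 (0.0691), by edgeR.

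The promoters of Ciart and Tef are shown because they are the 2 of 7 passing clock genes with a promoter in the table that held the E-box CACGTG within the window. They are from RefSeq on GRCm38.p6, chr3:95882179-95882478 on the minus strand for Ciart and chr15:81802423-81802722 on the plus strand for Tef, with the E-boxes in capitals.
Ciart: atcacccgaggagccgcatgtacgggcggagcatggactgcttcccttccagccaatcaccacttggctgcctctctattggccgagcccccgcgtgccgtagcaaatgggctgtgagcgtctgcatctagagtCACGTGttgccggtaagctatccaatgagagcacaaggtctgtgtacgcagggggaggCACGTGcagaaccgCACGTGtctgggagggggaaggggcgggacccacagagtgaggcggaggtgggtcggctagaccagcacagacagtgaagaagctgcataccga
Tef: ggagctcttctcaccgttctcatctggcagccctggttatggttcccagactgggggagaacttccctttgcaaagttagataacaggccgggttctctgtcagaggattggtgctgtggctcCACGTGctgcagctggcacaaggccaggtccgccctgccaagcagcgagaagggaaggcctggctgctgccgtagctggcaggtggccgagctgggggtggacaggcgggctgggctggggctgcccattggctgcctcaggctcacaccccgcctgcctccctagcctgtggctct
Ciart held 3 E-boxes, the first letters of which lay at bases -116, -58 and -44 from the start, and Tef held 1, at base -127. The motif reads the same on both strands. It was found in 7 of 42 lower genes (16.7%), Cipc, Coq10b, Atp2b1, Ndel1 and Tnfrsf21 besides this pair, in 5 of 150 higher genes (3.33%) and in 7.24% of all promoters. No match says only that these letters are not in the 300 bases searched.

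**Figure D3:**
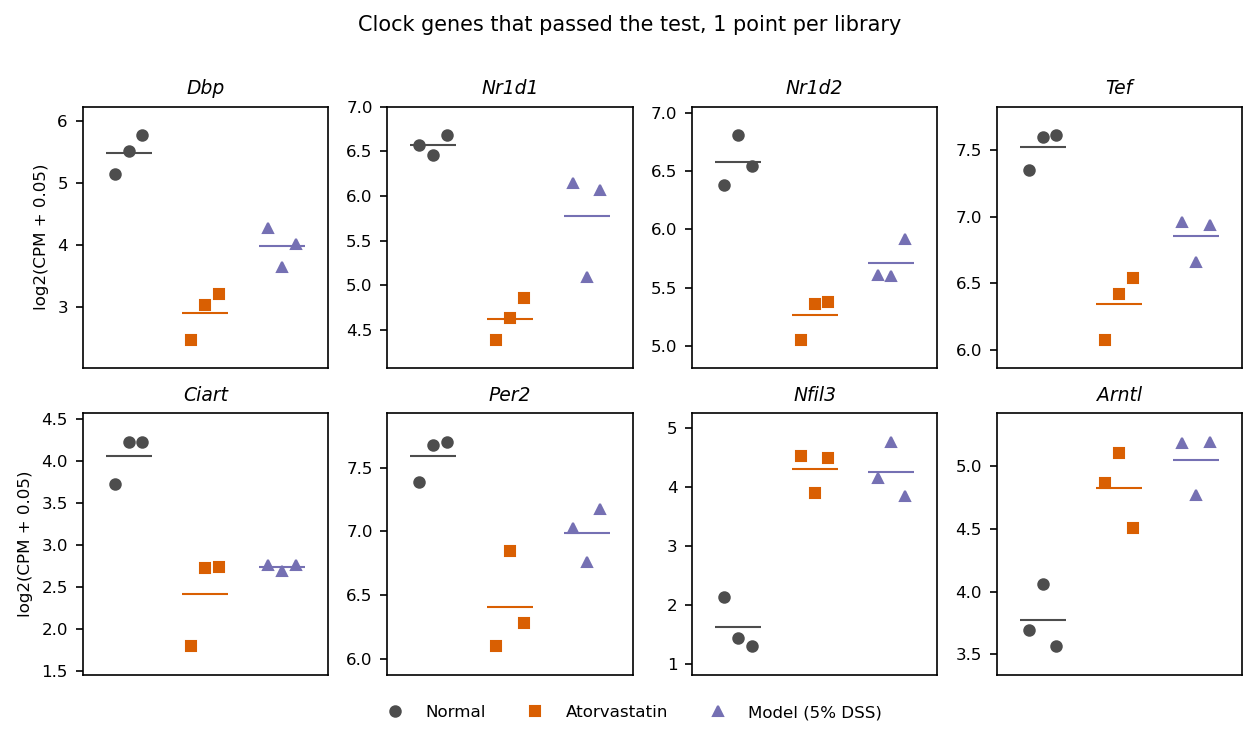
Log2(CPM + 0.05) of the 8 clock genes that passed, with 1 point per library, 3 libraries in each of Normal, Atorvastatin and Model (5% DSS), and a line at the group mean. Dbp, Nr1d1, Nr1d2, Tef, Ciart and Per2 are lower and Nfil3 and Arntl higher in each Atorvastatin library than in each Normal library.

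No gene of the drug's target pathway passed. Of 26 cholesterol synthesis and uptake genes, 0 passed edgeR's test and 1 was called higher by DESeq2's Wald test; 11 fold changes were positive and 15 negative, with a median of -0.02 against 0.01 for all genes. The synthesis enzymes Hmgcs1 (-0.24), Sqle (-0.15) and Cyp51 (-0.29), the sterol sensor Insig1 (0.07) and Srebf2 (0.20), which encodes SREBP2, all stayed within 0.3 on the log2 scale, and Hmgcs1, Sqle and Insig1 changed sign in at least 1 alternative. Among 12 efflux and LXR target genes 0 passed edgeR's test and DESeq2 called 2 higher (median 0.09), with the cholesterol exporter Abca1 at 34.3, 30.0 and 23.8 CPM in Normal and 59.7, 44.7 and 61.6 CPM in Atorvastatin (log2 fold change 0.91 ± 0.25, adjusted p = 0.111, edgeR) and the HDL receptor Scarb1 at 0.53.

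**Figure D4:**
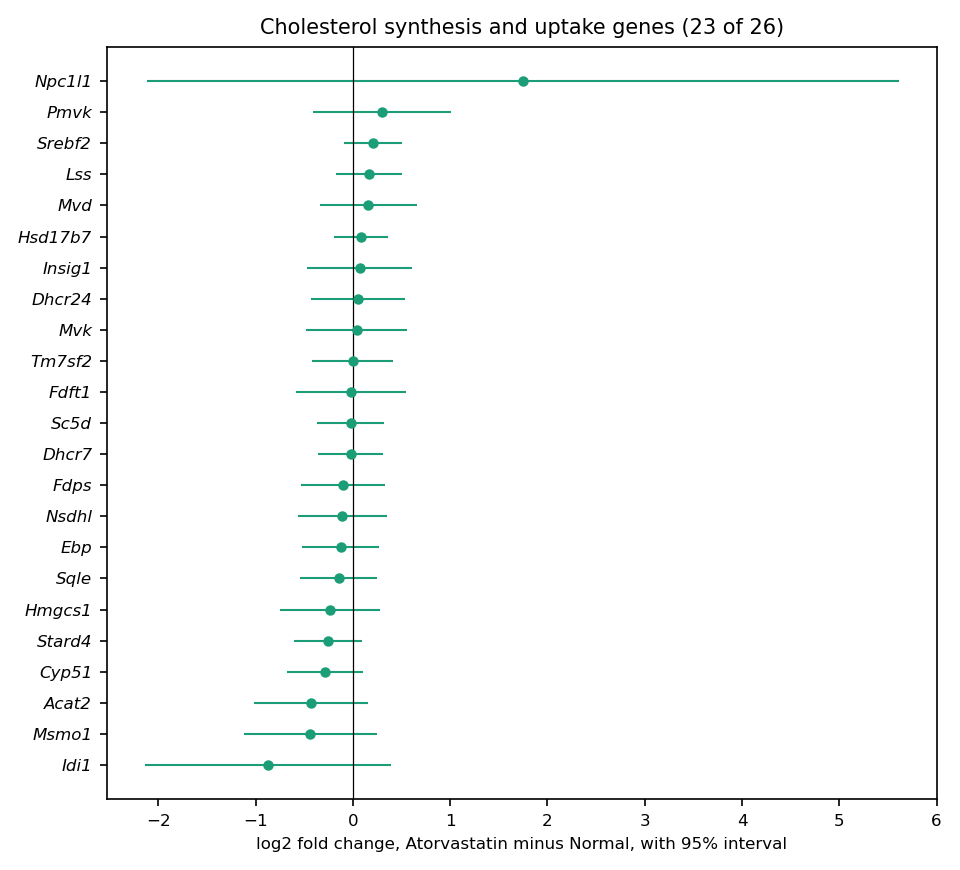
Log2 fold change of Atorvastatin minus Normal with its 95% interval from edgeR for 23 of the 26 cholesterol synthesis and uptake genes, ordered by value. None passed after adjustment over all genes, and Hmgcs1 (-0.24), Sqle (-0.15) and Srebf2 (0.20) lie near 0.

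In endothelial cells statins are known to raise Klf2 and the genes below it. Of 7 genes of this vascular response 1 rose: Thbd, the anticoagulant receptor thrombomodulin, was at 10.4, 14.7 and 11.9 CPM in Normal and 32.8, 27.3 and 23.5 CPM in Atorvastatin (log2 fold change 1.17 ± 0.19, adjusted p = 0.0211, edgeR). That call was lost without Normal 1 (0.0842), Normal 3 (0.110) and Atorvastatin 1 (0.0742). Klf2 was at 10.1, 5.12 and 5.54 CPM in Normal and 6.94, 5.72 and 5.38 CPM in Atorvastatin (log2 fold change -0.20 ± 0.34, adjusted p = 0.847, edgeR), Nos3, endothelial nitric oxide synthase, had a log2 fold change of 0.53 and Klf4 one of -0.69. Thbd was at 30.2, 33.1 and 25.2 CPM in the Model group.

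Metabolic lists held few calls. Of 20 fatty acid oxidation and PPAR target genes 1 rose, Angptl4, an inhibitor of lipoprotein lipase, from 3.72, 1.04 and 1.39 CPM to 14.6, 10.3 and 14.4 CPM (log2 fold change 2.68 ± 0.49, adjusted p = 0.034, edgeR; 0.0841 without Normal 2, 0.151 without Normal 3, 0.0554 without Model 1, 0.0993 without Atorvastatin 1 and 0.101 without Atorvastatin 3), and Acadl was next at 0.61. None of 20 tryptophan and kynurenine genes passed edgeR's test, and DESeq2 called 2 higher and 1 lower (median -0.29). Ido1, the inducible first enzyme of the kynurenine pathway, was at 15.9, 39.6 and 5.46 CPM in Normal and 87.1, 130 and 207 CPM in Atorvastatin, without overlap but with a wide spread (log2 fold change 2.80 ± 0.78, adjusted p = 0.124, edgeR). Maoa, which breaks down serotonin, was at 984, 1119.6 and 742 CPM in Normal and 439, 649 and 495 CPM in Atorvastatin (log2 fold change -0.85 ± 0.26, adjusted p = 0.160, edgeR). None of 9 genes of the aryl hydrocarbon receptor pathway passed with either tool (median 0.09): the receptor Ahr had a log2 fold change of 0.11, its repressor Ahrr -0.36, the target Cyp1a1 -1.43 and Il22 a ratio of 3.57-fold with a counting interval of 0.809 to 37.2 from 2 read pairs in Normal. None of 24 xenobiotic metabolism genes passed (median -0.18; DESeq2 called 2 lower), with Ephx1 at -0.77 and Gsta4 at 0.71. All 13 mitochondrially encoded genes had a negative fold change, yet none passed (median -0.56). Of these, 12 had non-overlapping libraries with Atorvastatin lower, against 11.2% of all genes. The gene mt-Atp8 came closest at -0.97 (adjusted p = 0.0895, edgeR), with mt-Nd4l next at -0.56. DESeq2 called 6 of the 13 lower. The summed level of the 13 was 8499 to 10484 CPM in Normal and 6599 to 6711 CPM in Atorvastatin. Pck1, a key enzyme of glucose and glycerol synthesis, fell from 218, 193 and 227 CPM to 52.0, 90.9 and 109 CPM (log2 fold change -1.34 ± 0.23, adjusted p = 0.0268, edgeR; 0.0887 without Normal 1, 0.0527 without Normal 2 and 0.109 without Normal 3), the single call among 11 adipocyte genes (median -0.19), of which Lep was at -1.54.

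No proliferation or stem cell gene passed. None of 22 cell cycle genes passed edgeR's or DESeq2's test; 21 had a positive fold change, with a median of 0.24, led by the ribonucleotide reductase subunit Rrm2 at 0.93 and the mitotic kinase Aurkb at 0.56. None of 16 stem cell and Wnt target genes passed edgeR's test and DESeq2 called 1 lower (median -0.21): the Wnt target Axin2 was at 25.1, 19.8 and 26.6 CPM in Normal and 15.6, 9.51 and 10.9 CPM in Atorvastatin (log2 fold change -0.99 ± 0.30, adjusted p = 0.152, edgeR), the receptor Ephb2 had 0.52, and Lgr5, the marker of crypt stem cells, was at 2.38, 4.21 and 4.46 CPM in Normal and 5.12, 2.23 and 1.36 CPM in Atorvastatin, with overlap. The immediate early genes (0 of 16 by edgeR, median 0.31, Dusp1 at 0.95 and Egr1 at 2.56) and the heat shock and unfolded protein genes (0 of 17, median -0.15, Ddit3 at -0.50 and Dnajb9 at -0.52) did not pass either; DESeq2 called 2 and 0 of them higher and 1 and 1 lower.

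Among the other lower genes, those with the smallest p were Tppp, Phgr1, Ly6m and Tmem43. Which cells held their RNA was not tested. Tppp, a protein that stabilises microtubules, had the smallest p of the comparison: it was at 161, 152 and 211 CPM in Normal and 21.4, 20.5 and 28.6 CPM in Atorvastatin. Its log2 fold change was -2.89 ± 0.21 with an adjusted p of 0.00275 by edgeR (0.00308 to 0.0199 with each library left out), and it lies on chromosome 13, 74157538 to 74183872. Phgr1, a small protein of gut epithelium, went from 313, 287 and 304 CPM to 103, 109 and 135 CPM (log2 fold change -1.38 ± 0.14, adjusted p = 0.00562, edgeR). Ly6m, a member of the Ly6 family whose copies can share reads, went from 1109, 839 and 736 CPM to 157, 205 and 194 CPM (log2 fold change -2.27 ± 0.23, adjusted p = 0.00562, edgeR). Both passed with every library left out. Tmem43, an inner nuclear membrane protein, had a log2 fold change of -1.17 and was lost without Normal 3 (adjusted p = 0.0558, edgeR). Other falls were lost when single libraries were left out. The actin-severing protein Scin fell by 2.23 on the log2 scale, Iyd, the enzyme that recovers iodide from iodotyrosines, by 2.10, the ubiquitin ligase Rnf170 by 2.02 and the neuronal pentraxin Nptx1 by 2.34; each missed the threshold without Normal 1, Normal 3, Model 1, Atorvastatin 1 or Atorvastatin 3, where the adjusted p of Scin was 0.0894, 0.112, 0.0503, 0.0724 and 0.101 (edgeR). Iyd (0.0941) and Rnf170 (0.0887) missed it without Normal 2 too, and Rnf170 (0.0583) and Nptx1 (0.0509) without Atorvastatin 2. Of 6 erythrocyte genes tested none passed and all 6 had a positive fold change (median 0.82), with Hbb-bt at 0.96 and Hbb-bs at 0.84.

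**Figure D5:**
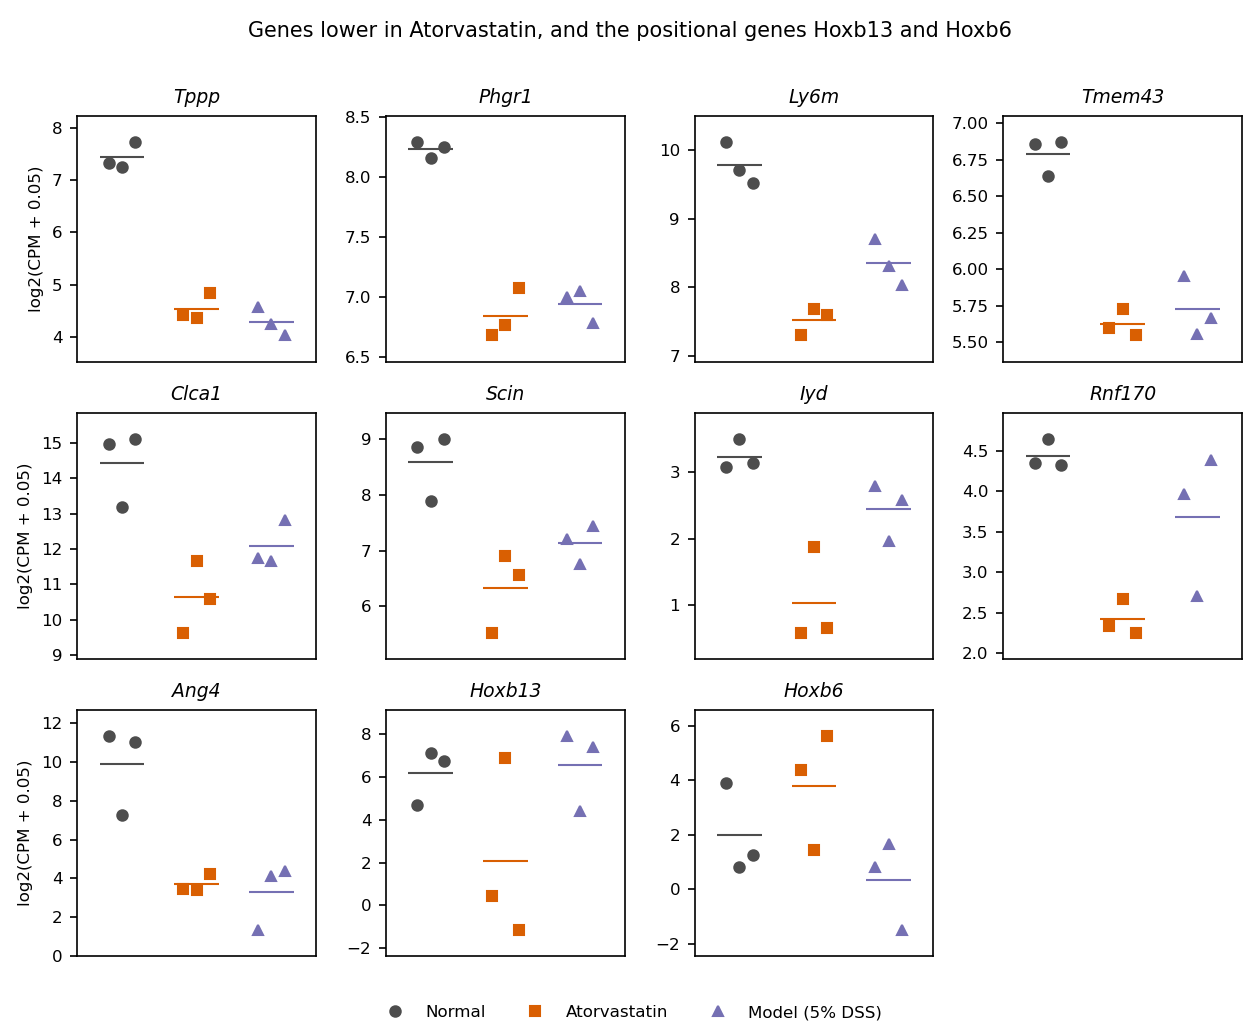
Log2(CPM + 0.05) of 9 lower genes and of the positional genes Hoxb13 and Hoxb6, with 1 point per library, 3 libraries in each of Normal, Atorvastatin and Model (5% DSS), and a line at the group mean. Tppp, Phgr1, Ly6m and Tmem43 are tight within groups, while Ang4 and Clca1 have Normal 2 well below the other Normal libraries and Hoxb13 has Atorvastatin 2 apart from Atorvastatin 1 and Atorvastatin 3.

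Lists of other tissues held few calls. None passed among 17 small intestinal enterocyte genes (median 0.69; Mep1a -0.78, Fabp6 2.30), 8 skeletal muscle genes (-0.60; Myh2 -4.24, Ckm -0.80) and 7 mesothelial genes (0.96; Wt1 1.42, Upk1b 1.27). Of 4 tested Paneth cell genes Ang4 alone passed (median -3.60), with Itln1 at -6.18 (adjusted p = 0.132, edgeR). The acinar genes with the smallest p were Sycn at -2.30 and Prss3 at 1.98 (adjusted p = 0.266 and 0.700, edgeR). None of 7 proximal and none of 7 distal colon genes passed (medians -0.70 and -0.93), with Hoxa13 at -0.60, Cwh43 at 0.61 and Hoxb6 at 1.95, and of the colon identity markers Hoxd10 was at 2.13.

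The Model libraries give the values of colon given DSS, with Model 2 and Model 3 set apart by their pancreatic acinar RNA, whose part in the differences from Model was not tested. All 21 acinar genes were lower in Atorvastatin than in Model by fold change (median -4.89), and none passed. In Model against Normal, which uses the same 3 Normal libraries, 883 of the 16160 genes (5.46%) passed edgeR's test, 4.37% higher and 1.10% lower. In the direct comparison of Atorvastatin with Model 0 genes passed (0%), 1908 had an unadjusted p under 0.05 and the smallest adjusted p was 0.322 by edgeR; DESeq2's Wald test called 321, limma-voom 0, and the edgeR count was 1 without Model 1, 1 without Model 2 and 0 without both Model 2 and Model 3. For the leading genes the 95% interval of the log2 difference of Atorvastatin from Model was -0.55 to 2.04 for Cxcl2, -1.97 to 1.999 for S100a9, -0.80 to 0.27 for Gpnmb, -0.89 to 0.38 for Serpina3n and -0.19 to 0.69 for Tppp, so differences of those sizes could not be told from 0. The intervals here, those of Nos2, Axin2 and Aurkb included, cover 1 gene each without adjustment, and none of these genes passed against Model. For Nos2 the interval was -1.53 to -0.17. Nos2 was at 393, 371 and 275 CPM in Model and at 145 to 238 CPM in Atorvastatin, below each Model library. The share of all genes with such an arrangement between Atorvastatin and Model was not counted. H2-DMa, which loads peptides onto MHC class II, was at 21.4, 18.2 and 9.52 CPM in Normal, 28.2, 38.5 and 54.6 CPM in Atorvastatin and 61.6, 69.7 and 72.2 CPM in Model. Axin2 was at 3.97, 3.06 and 6.55 CPM in Model, below both other groups, and the log2 difference of Atorvastatin from Model had an interval of 0.73 to 2.09. Aurkb was at 7.997, 6.29 and 10.0 CPM in Model and 22.7, 14.0 and 15.7 CPM in Atorvastatin (interval 0.56 to 1.65), and all 22 cell cycle genes were higher in Atorvastatin than in Model by fold change, with a median of 0.89 and none passing after adjustment.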

How the data were processed

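The deposited table holds estimated gene counts for 9 colon libraries. Per the submitters' processing notes the tools were bcl2fastq 2.0, HISAT2, StringTie and DESeq2 and the builds rn6 and mm39, with no role or order given; per the labels, libraries were made with a SMARTER mRNA kit, and strand use in counting is not given in the sources used here. The authors' estimated counts peak at multiples of 4 among low values, so 1 read pair was taken as 4 counts; a floor of 3 read pairs is 12 counts. Values printed as CPM are counts divided by TMM-scaled library size, 1 value per library, and levels are compared within a gene only. Sequences are from RefSeq on GRCm38.p6; gene coordinates are the deposited table's and were not converted (0.185% of matched genes have the same coordinates in both).

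The deposited estimated counts were fitted unchanged with edgeR 4.0.16 in R 4.3.3 (filterByExpr, TMM, quasi-likelihood F test, 2-sided, all 9 libraries, group as the only term), with Benjamini-Hochberg adjustment over 16160 genes and a threshold of 0.05. SE is that of the log2 fold change. Counting intervals are 95% exact binomial intervals, given where the lower group had under 10 read pairs; like the floors they cover counting error only. Alternatives were DESeq2 1.42.0, limma-voom 3.58.1, other scalings and filters, the 2 groups alone, the replicate number as a block, counts divided by 4, each library left out and a Hoxb13 covariate. Replicates differed from each other by a median of 0.236 to 0.400 on the log2 scale, above the 0.0731 to 0.0819 that counting gives, so each was counted as 1 library.

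The text names, among passing genes, the 10 with the largest rise, the 10 with the largest fall and the 5 with the smallest p each way that had at least 1 CPM on average and no overlap, 2 per list with the smallest p, and a set of always-named genes; others are passing members of the lists, positional genes or genes chosen after their values were seen. The members and all lists were chosen with earlier results of these data known. Some genes that the rule names are not reported here. Figures were drawn with matplotlib.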

Additional observations from a re-analysis of the deposited data

How the results depend on the processing

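Of the 270 genes, 9 passed in all 20 alternatives (Tppp, Serpina3n, Gpnmb, Phgr1, Lsm12, Clec4n, Fcer1g, Nos2 and Adamts9). All 270 kept their direction in each alternative that tested them, an outcome nearly fixed by their non-overlapping libraries. The count was 261 to 297 with DESeq2 size factors, upper-quartile scaling, other filters or counts divided by 4, but 1056 with DESeq2's Wald test (715 higher, 341 lower), 141 with limma-voom (99 higher), 18 with the Hoxb13 covariate (15 higher, 3 lower) and 17 to 382 with 1 library left out (12 to 304 higher, 5 to 78 lower). A fit of the 2 groups alone gave 326, of which 214 were among the 270. Without Model 2 and Model 3 together the count was 316, of which 212 were among the 270. Fewer libraries leave fewer degrees of freedom, and beyond that the cause of these changes in the count was not tested.

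With the replicate number as a block the count was 104 (89 higher, 15 lower). The correlations of same-numbered deviations between Atorvastatin and Normal were 0.10, 0.23 and 0.08, so the numbers were not taken as pairs; 2 of the 3 Atorvastatin libraries correlated best with their own number.

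Model against Normal gave 1966 with DESeq2's Wald test, 474 in a fit of the 2 groups, 402 with the replicate block, 476 without Model 2 and Model 3, the libraries with the most pancreatic acinar RNA, and 164 to 1164 with 1 library left out. Atorvastatin against Model gave 321 with DESeq2 and 0 to 1 with 1 library left out.

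The log2 fold change changed sign for Hmgcs1 (0.14), Sqle (0.14) and Hoxb6 (-0.65) with the Hoxb13 covariate, and with 1 library left out it ran from -0.12 to 0.23 for Insig1, from -0.38 to 0.17 for Klf2 and from -2.66 to 0.49 for Lep.

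Genes with under 10 read pairs in a group are limited by depth, and their folds by the counting intervals given.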
